A study of Homo sapiens with 18 samples.

Results

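Cytosolic ribosomal protein genes encode the proteins of the large and small subunits of the ribosome outside mitochondria. They were taken from the expression table of the Panc1 and Panc89 cells by symbol, as *RPL* or *RPS* followed by a number with the usual letter endings, or as *RPLP0*, *RPLP1*, *RPLP2* or *RPSA*, without pseudogenes. Of 40266 gene symbols, 85 matched. The paralogs *RPL3L*, *RPL22L1*, *RPL39L*, *RPL26L1* and *RPS27L* are described apart, which left 80 genes, 49 of the large and 31 of the small subunit. Of these, 79 reached at least 1 TPM, the length-normalised abundance of a transcript, in at least 3 libraries and were tested among 16093 genes. *RPL10L*, a copy of *RPL10* known from testis, was at 0 in 16 of 18 libraries and was not tested. By name the 80 include *RPL36AL*, *RPL7L1* and *RPL10L*, which are themselves relatives of *RPL36A*, *RPL7* and *RPL10*.

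The 6 groups were parental, Holoclone and Paraclone cells of 2 established human lines of pancreatic ductal adenocarcinoma (PDAC). Panc1 comes from a primary tumour and served as the mesenchymal model, Panc89 comes from a lymph node metastasis and served as the epithelial model. Holoclone cells stand for cancer stem cells and Paraclone cells for non-stem cells. They were expanded from single cells, so that a clone type of a line is 1 clone, and none of the groups carries an engineered allele or a treatment according to the labels. RNA of 3 passages per group was sequenced, and the p-values below therefore measure the spread between passages of the same culture or clone. TPM are per transcript length, so levels of different genes can be set side by side, but they carry no read counts, and depth and counting error are unknown. *KRT8*, *KRT18* and *KRT19* were at 183 TPM or more in every library, the sum of all 6 carcinoma markers was 2603 to 5026 TPM in Panc1 and 4016 to 6862 TPM in Panc89 libraries, and *CDH1* was near absent in Panc1 with group means of 0.99 to 2.84 TPM. The sum of *VIM* and *ZEB1* was 2038 to 5057 TPM in Panc1 and 0.0776 to 3.41 TPM in Panc89 libraries. Of markers of other cells, those of fibroblasts stayed at or under 1.32 TPM in sum. Endothelial markers reached 55.2 to 69.1 TPM in sum in parental Panc89 libraries, against 0.0232 to 0.149 TPM in parental Panc1 libraries. Means in parental Panc89 cells were 60.1 TPM for *PECAM1*, 3.78 TPM for *CDH5* and 0.105 TPM for *VWF*. In Panc89 Holoclone and Paraclone libraries the sum was 1.01 to 2.16 TPM and 2.95 to 8.90 TPM. Leukocyte markers reached 4.73 to 5.96 TPM in parental Panc89 against 0.145 to 0.69 TPM in parental Panc1 libraries, with *CD3E* at 0 in both. The part of these markers in the comparison of the lines was not tested. In bulk libraries, fewer cells that express a gene and less RNA per cell cannot be told apart.

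A ribosome is built from ribosomal RNA and about equal numbers of copies of each ribosomal protein, so cells are known to make these proteins in step. Their mRNAs are among the most abundant of growing cells. Most begin with a C followed by a run of pyrimidines, the terminal oligopyrimidine (TOP) motif, through which mTOR and the binding protein LARP1 are known to set their translation. Ribosomal proteins that are left unbound, RPL5 and RPL11 in particular, are known to bind MDM2, and single members such as RPSA and RPS3 have been given roles outside the ribosome.

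The start sites of the genes on which the results turn are shown to let this shared feature be seen. Each line gives 15 bases before the RefSeq start (GRCh38.p14) and 15 bases from the start on, 5′ to 3′ on the gene's own strand, with the pyrimidine run that begins with a C at the start in capitals where it has at least 5 bases. Of several annotated starts of a gene, the one with the longest run is shown, and a gene was counted when any of its starts had the motif.
RPS16: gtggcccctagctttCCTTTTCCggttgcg
RPS6: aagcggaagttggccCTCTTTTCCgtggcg
RPL13: ttgcggggccgcttcCTTTCCgctcggctg
RPL41: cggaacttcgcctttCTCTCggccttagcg
RPSA: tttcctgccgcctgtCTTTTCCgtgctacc
RPLP2: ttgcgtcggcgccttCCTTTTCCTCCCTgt
RPS21: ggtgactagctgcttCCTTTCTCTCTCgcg
RPL36AL: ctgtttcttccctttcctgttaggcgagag
RPL22: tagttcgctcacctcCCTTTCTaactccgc
RPL22L1: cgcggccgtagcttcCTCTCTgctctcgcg
RPS27: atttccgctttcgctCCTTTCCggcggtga
RPS27L: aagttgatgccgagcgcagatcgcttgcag
Windows are at chr19:39435935-39435964 (minus strand) for *RPS16*, chr9:19380222-19380251 (minus) for *RPS6*, chr16:89560667-89560696 (plus) for *RPL13*, chr12:56116618-56116647 (plus) for *RPL41*, chr3:39406705-39406734 (plus) for *RPSA*, chr11:809952-809981 (plus) for *RPLP2*, chr20:62387088-62387117 (plus) for *RPS21* and chr14:49620612-49620641 (minus) for *RPL36AL*. The pairs of a gene and its paralog are at chr1:6199581-6199610 (minus) for *RPL22* and chr3:170870181-170870210 (minus) for *RPL22L1*, and at chr1:153990747-153990776 (plus) for *RPS27* and chr15:63157463-63157492 (minus) for *RPS27L*. *RPS16*, *RPS6* and *RPL13*, which had the largest differences between the parental lines, all start with such a run, and so does *RPS21*. *RPL36AL* and *RPS27L* do not. No such run was found at the starts of *RPL19* and *RPL27*, which are not shown and had log2 fold changes of 1.84 and 1.72 between the parental lines. The motif searched was a C at the annotated start followed by at least 4 bases that are C or T, on the strand of the gene. It was found in 46 of the 65 members with an entry (70.77%) and in 5.142% of all 27305 symbols of the promoter table. For genes of mitochondrial ribosomal proteins, which are made from a separate set of genes, it was found in 6 of 69. The longest run was that of *RPL39* with 19 bases, and the median of the 46 was 8. Within 5 bases before to 10 bases after the start, 54 of the 65 members and 25.22% of all symbols held a run of this kind. Among the genes named above without a run at the start, *RPL36AL* and *RPL19* held one in this window, and *RPS27L* and *RPL27* did not.

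Together the 80 genes held between 14.3% and 22.0% of the TPM of a library. Parental Panc1 libraries gave 16.5%, 14.8% and 15.6% and parental Panc89 libraries 22.0%, 20.5% and 22.0%, so the lines did not overlap. Panc1 Holoclone libraries gave 17.2%, 14.3% and 16.7% and Panc89 Holoclone libraries 17.0%, 20.1% and 20.0%. In Paraclone cells the values were 15.1%, 17.2% and 17.9% in Panc1 and 19.04%, 16.8% and 20.4% in Panc89, so the clones of the lines overlapped. Without *RPS16*, which alone made 12.5% to 15.0% of the ribosomal protein TPM of Panc1 libraries and 0.808% to 0.954% of those of Panc89 libraries, all 9 Panc1 libraries lay at 12.3% to 15.5% and all 9 Panc89 libraries at 16.7% to 21.8%. *RPS16* was left out after its values were seen. Leaving it out lowers the Panc1 shares far more than the Panc89 shares, so this separation is in part made by that choice. Large subunit genes held 7.29% to 9.17% of the TPM in Panc1 and 9.95% to 13.3% in Panc89 libraries, without overlap. Small subunit genes, with *RPS16* included, held 7.01% to 8.73% in Panc1 and 6.65% to 8.71% in Panc89 libraries, which overlap. Of this, *RPS16* alone held 1.88% to 2.54% of the TPM in Panc1 and 0.136% to 0.194% in Panc89 libraries. The overlap is therefore that of a sum in which *RPS16* goes against most members. It does not show that the difference between the lines is confined to the large subunit.

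**Figure D1:**
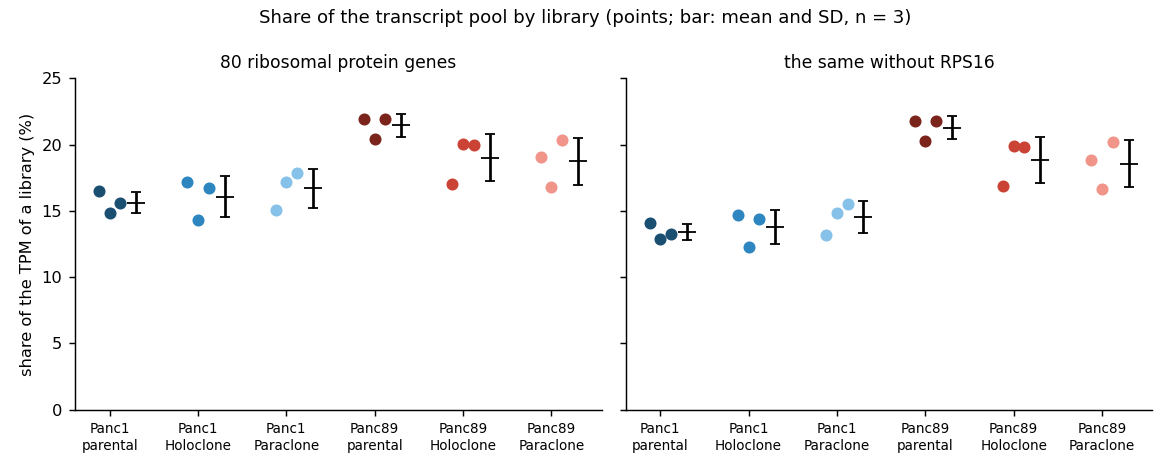
Share of the TPM of each library (%, vertical axis) held by the 80 ribosomal protein genes (left) and by the same genes without *RPS16* (right). Points are the 3 libraries of a group in the order of their replicate numbers, and bars beside them give mean and SD. Without *RPS16*, which was left out after its values were seen, the Panc1 libraries lie at 12.3% to 15.5% and the Panc89 libraries at 16.7% to 21.8%.

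Within groups, single libraries stood below the others. The lowest shares were those of parental replicate 2, Holoclone replicate 2 and Paraclone replicate 1 in Panc1, and of parental replicate 2, Holoclone replicate 1 and Paraclone replicate 2 in Panc89. In Panc89 Holoclone replicate 1, for example, 10 of the 79 tested genes were above their group mean, against 71 and 58 in the other libraries of that group. In 5 of the 6 groups this library also had the highest level of a list of 97 cell cycle genes, given as the median deviation from the mean over all libraries on the log2 scale. That level was 0.79, −0.28 and −0.71 in the 3 Panc89 Holoclone libraries and −1.52, 0.65 and −1.31 in the 3 Panc89 Paraclone libraries. In Panc1 it was 0.07, 0.80 and 0.11 in parental, 0.22, 0.85 and 0.43 in Holoclone and 0.68, −0.19 and −0.77 in Paraclone libraries. The exception was parental Panc89 with −0.04, 0.01 and 0.02. The part of the cell cycle in the ribosomal protein levels was not tested.

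Between the lines, ribosomal protein genes were mostly higher in Panc89, in all 3 cell variants. In parental cells 53 of 79 were higher and 6 lower, with a median log2 fold change of 0.62, while 27.5% of all tested genes were higher and 38.5% lower and their median was −0.18. In Holoclone cells 47 were higher and 12 lower (all genes 29.3% and 36.4%), with a median of 0.47 against −0.11 for all genes. In Paraclone cells 45 were higher and 12 lower (all genes 30.2% and 30.4%), with a median of 0.42 against 0.00 for all genes. These calls are from limma-trend on log2(TPM + 1) with a Benjamini-Hochberg adjusted p under 0.05, which is meant by higher and lower throughout. The 3 comparisons share no libraries but share the estimate of the spread. Higher in Panc89 in all 3 were 38 of the 79 genes, against 17.8% of all genes, and lower in all 3 were *RPL10*, *RPS14*, *RPS16* and *RPS4X*, against 21.6% of all genes. The 48 tested genes of the large subunit had a median of 0.73 in parental, 0.50 in Holoclone and 0.54 in Paraclone cells. The 31 genes of the small subunit had 0.42, 0.45 and 0.08. Under median-of-ratios scaling, which moved the median of all genes from −0.18 to 0.02 in parental cells, 61 ribosomal protein genes were higher and 5 lower with a median of 0.87, and the share that was higher among all called genes went from 41.6% to 51.8%.

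**Figure D2:**
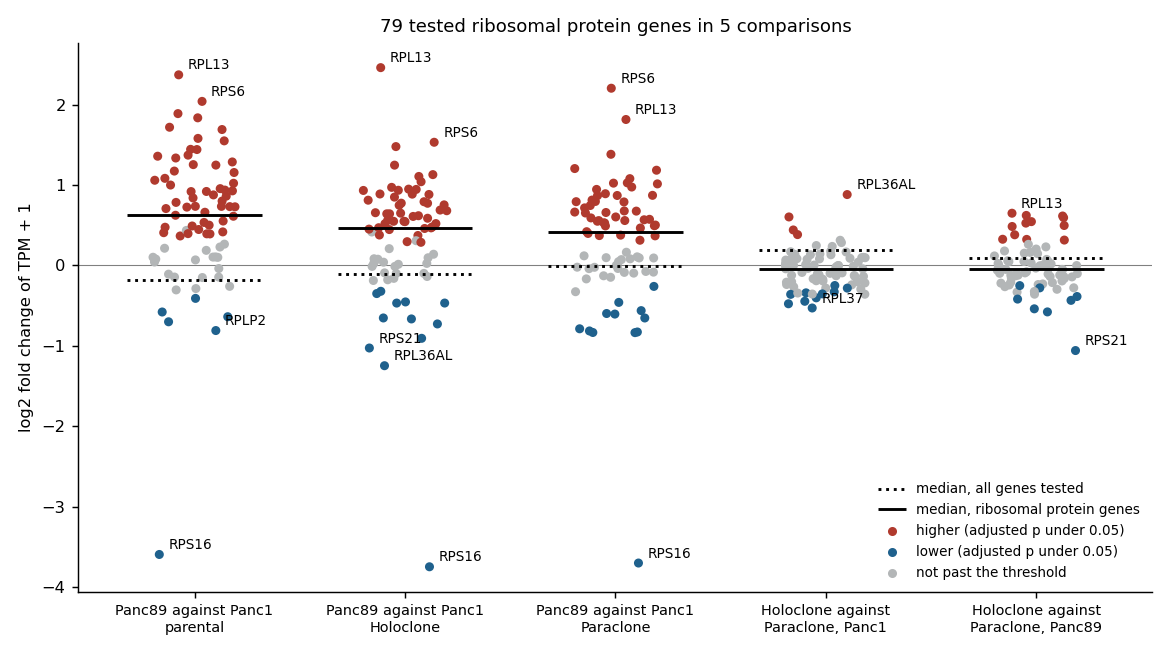
Log2 fold change of TPM + 1 (vertical axis) of the 79 tested ribosomal protein genes in 5 comparisons, spread sideways for visibility. Red and blue points passed an adjusted p of 0.05 in limma-trend, solid lines are medians of these genes and dotted lines medians of all 16093 genes tested. Ribosomal protein genes lie above all genes in the 3 comparisons of the lines, with medians of 0.62, 0.47 and 0.42, and slightly below them in the 2 comparisons of the clones, with −0.04 and −0.05.

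Among the large subunit genes, *RPL13* differed most. It was at 1552, 1454 and 1514 TPM in parental Panc1 and at 8044, 7158 and 8243 TPM in parental Panc89 cells. Every Panc89 library lay above every Panc1 library, also in Holoclone cells with 2329, 1477 and 2151 TPM against 8330.4, 12145 and 12242 TPM and in Paraclone cells with 1590.3, 2070.4 and 2226 TPM against 7774, 5226 and 7889 TPM. The log2 fold changes were 2.37 ± 0.20 (SE) in parental, 2.46 ± 0.20 in Holoclone and 1.82 ± 0.20 in Paraclone cells. *RPL41* encodes one of the smallest known proteins and was the second most abundant member over all libraries. It was at 3466 to 3733 TPM in parental Panc1 and 9323 to 10210.2 TPM in parental Panc89 cells, and its range in all Panc1 libraries, 3258 to 3816 TPM, lay under that in all Panc89 libraries, 7515 to 10289 TPM. *RPL23*, which is also known to bind MDM2, was at 741, 652 and 678 TPM in parental Panc1 and at 2596, 2491 and 2587 TPM in parental Panc89 cells. Both Panc1 clones were above their parental cells in *RPL23*, with 966 to 1055 TPM in Holoclone and 1000.4 to 1378 TPM in Paraclone cells, and the fold change between the lines was 3.71 in parental but 1.91 in Holoclone and 2.04 in Paraclone cells. The same course was seen for *RPL19*, with 1038 to 1282 TPM, 1531 to 1954 TPM and 1482 to 1697 TPM in parental, Holoclone and Paraclone Panc1 cells and 4009 to 4224 TPM in parental Panc89 cells. *RPL27* likewise went from 636 to 674 TPM in parental to 864 to 1087 TPM and 1229 to 1322 TPM in Holoclone and Paraclone Panc1 cells, against 1992 to 2282 TPM in parental Panc89 cells. These steps from parental to clone cells are given as values and were not tested. *RPL19*, *RPL23* and *RPL27* all lie on chromosome 17, where the 6 tested members had a median log2 fold change of 1.58 between the parental lines and all 974 tested genes one of 0.00. The up to 20 tested genes nearest to each, other ribosomal protein genes left out, had medians of 0.74, 0.58 and 0.42.

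In the small subunit, *RPS6*, the target of the S6 kinases, was at 712, 556 and 623 TPM in parental Panc1 and at 2709, 2398 and 2661 TPM in parental Panc89 cells, a log2 fold change of 2.04 ± 0.13 (limma-trend adjusted p = 1.86e-09). Holoclone cells gave 635 to 684 TPM against 1546 to 2122 TPM and Paraclone cells 533 to 661 TPM against 2455 to 2983 TPM, so the lines were apart in each variant. *RPSA*, which is also described as a laminin receptor, was at 526, 535 and 488 TPM in parental Panc1 and 1577, 1814 and 1623 TPM in parental Panc89 cells. In Panc89 Paraclone cells it spread from 892 to 1649.8 TPM, with the highest value in replicate 2, the library with the lowest share of ribosomal protein genes. *RPS19*, which is mutated in Diamond-Blackfan anaemia, was at 1699 to 1764 TPM and 2977 to 3243 TPM in the parental lines. *RPS3* was at 3230.1 to 3402 TPM and 4555 to 4704 TPM, with a smaller difference of 0.48. *RPL13A*, a large subunit protein with a described role in silencing inflammatory mRNAs, was at 1005 to 1196 TPM and 2783 to 2965 TPM, a difference of 1.37. For the MDM2 binding proteins, *RPL5* was at 710.2 to 823 TPM and 1441 to 1491 TPM, with a difference of 0.92, whereas *RPL11* was at 1665 to 1843 TPM and 1939 to 2149 TPM, with 0.21 and an adjusted p of 0.0528 in limma-trend.

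**Figure D3:**
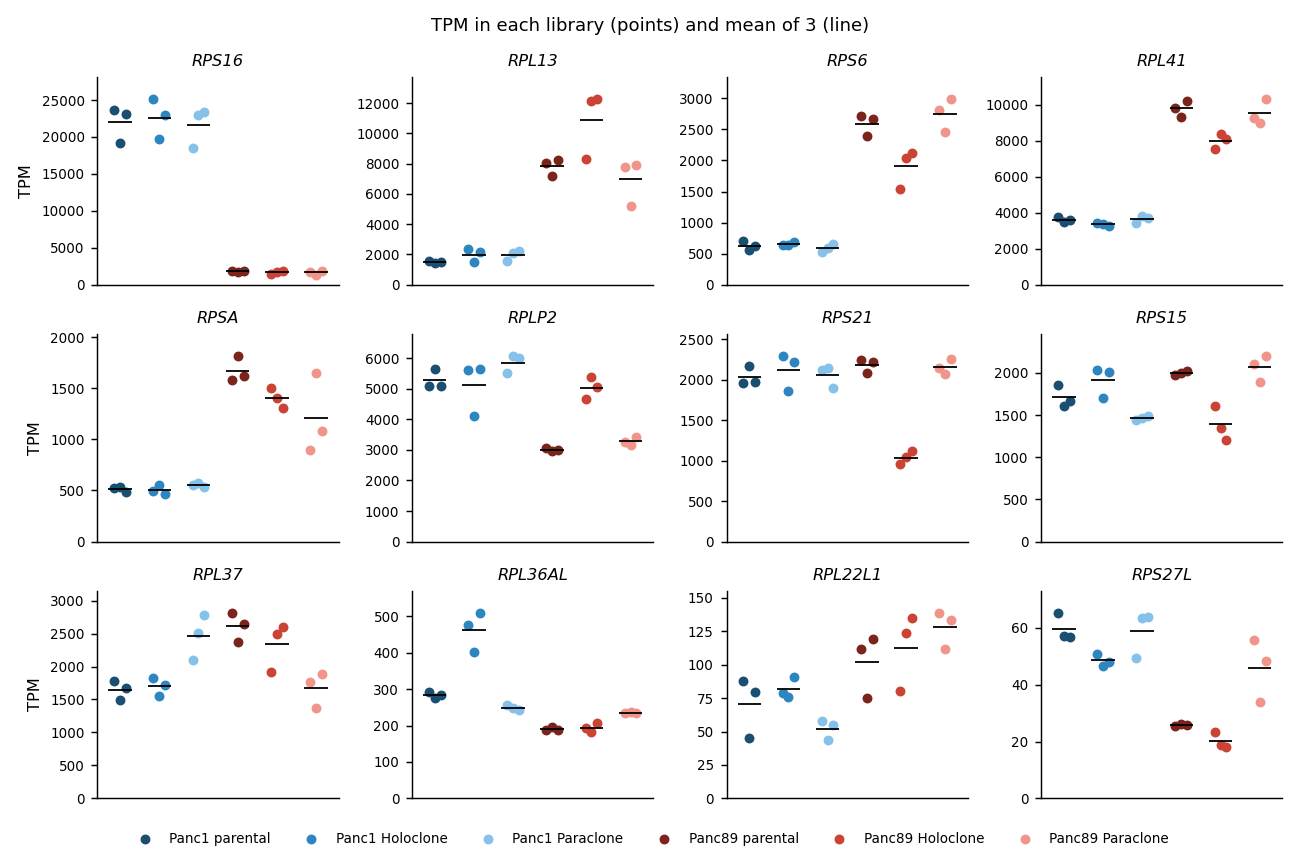
TPM (vertical axes, each from 0) of 10 ribosomal protein genes and the paralogs *RPL22L1* and *RPS27L* in every library, coloured by group as in the key, with the mean of the 3 libraries of a group as a line. *RPS16* lies at 18565 to 25089 TPM in Panc1 and at 1337 to 1917 TPM in Panc89 libraries, *RPL13*, *RPS6*, *RPL41* and *RPSA* are higher in Panc89, *RPS21* is low in Panc89 Holoclone cells alone and *RPL36AL* is high in Panc1 Holoclone cells alone.

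*RPS16*, a protein of the head of the small subunit, went the other way and by far more. It was at 23678, 19143 and 23143 TPM in parental Panc1 and at 1841, 1745 and 1843 TPM in parental Panc89 cells. Holoclone cells gave 25089, 19774 and 23040.0 TPM in Panc1 and 1439, 1791 and 1821 TPM in Panc89, and Paraclone cells 18565, 22991 and 23338 TPM in Panc1 and 1757, 1337 and 1917 TPM in Panc89. It was therefore the most abundant ribosomal protein mRNA over all libraries, with a mean of 11903 TPM, although in Panc89 it was under the median of 1942 TPM of the members' means. Panc89 was lower by 12.1 times in parental, 13.4 times in Holoclone and 13.0 times in Paraclone cells, with log2 fold changes of −3.60 ± 0.15, −3.75 ± 0.15 and −3.70 ± 0.15. The other members that were lower in parental Panc89 cells differed by −0.81 at most.

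The genes around *RPS16* shared this difference. *RPS16* lies at chr19:39433137-39435949 on the minus strand (GENCODE 44, GRCh38). Of the 26 other tested genes that start within 500 kb of it, 25 were lower in parental Panc89 cells, none was higher, and their median log2 fold change was −3.40. Within 1000 kb, 49 of 57 genes were lower, none was higher, and the median was −2.54. In Holoclone cells the same 57 genes gave 49 lower and 1 higher with a median of −2.59, and in Paraclone cells 47 lower and none higher with −2.62. Of these neighbours, some were chosen for naming after their values were seen. Among them is *FBL*, the methyltransferase fibrillarin that modifies ribosomal RNA, which was at 4991, 4621 and 4824 TPM in parental Panc1 and at 203, 219.6 and 205 TPM in parental Panc89 cells. *MRPS12*, a gene of the mitochondrial ribosome in the same stretch, had a log2 fold change of −2.39. *PAF1* and *SUPT5H*, which act in transcription elongation, had −4.61 and −3.82. Between Holoclone and Paraclone cells, *RPS16* differed by 0.07 ± 0.15 in Panc1 and 0.02 ± 0.15 in Panc89.

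**Figure D4:**
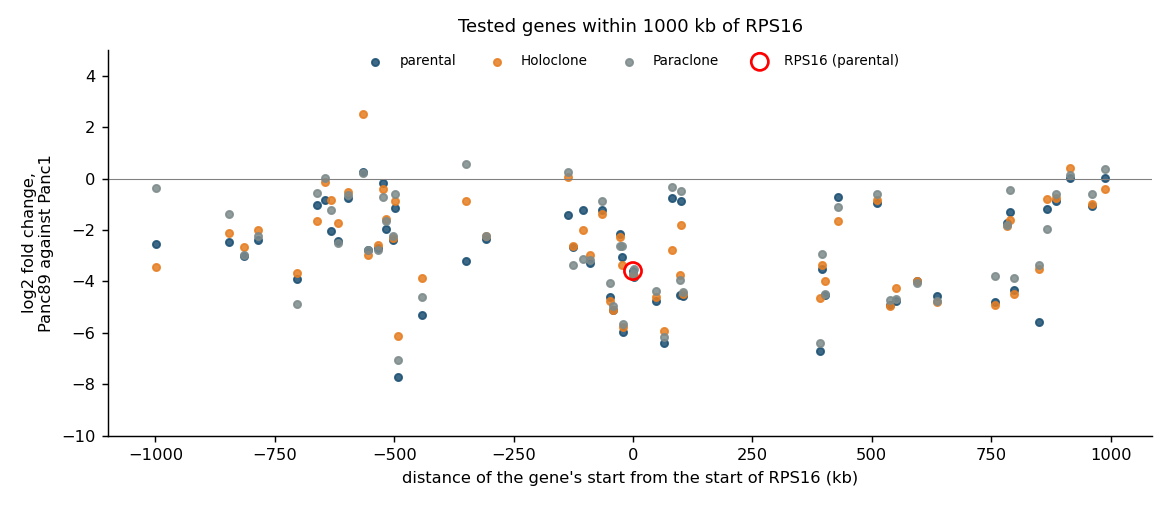
Log2 fold change between Panc89 and Panc1 (vertical axis) of the tested genes against the distance of their start from that of *RPS16* (kb, horizontal axis), for parental, Holoclone and Paraclone cells; the circle marks *RPS16* in parental cells. Within 500 kb the medians of the other genes are −3.40, −3.36 and −3.27, and the 3 cell variants follow each other.

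Besides *RPS16*, few members were lower in Panc89. *RPS14*, a small subunit gene known from the 5q deletion syndrome, was at 1689.7, 1219 and 1445 TPM in parental Panc1 and 918, 816 and 923 TPM in parental Panc89 cells. *RPS4X*, on the X chromosome, was at 1058, 927 and 1030.1 TPM and 665, 615 and 654 TPM. In both, every Panc89 library lay under every Panc1 library of the same variant. *RPLP2*, one of the acidic proteins of the stalk that recruits translation factors, was at 5088 to 5655 TPM in parental Panc1 and 2959 to 3071 TPM in parental Panc89 cells, and at 5508 to 6074 TPM and 3169 to 3428 TPM in Paraclone cells. In Holoclone cells it was at 4099 to 5647 TPM and 4659 to 5389 TPM, which overlap. *RPL36AL* was at 276 to 292 TPM and 187 to 195 TPM in parental cells. *RPL10*, which helps to join the subunits, was lower by 1.33 times in parental cells at an adjusted p of 0.0312 in limma-trend, and this call was lost when any 1 of 5 of the 6 parental libraries, that is all but Panc1 replicate 2, was left out, and under both other scalings. In the clones *RPL10* had log2 fold changes of −0.73 and −0.83. *RPL39*, a protein at the exit of the peptide tunnel, had −0.26 in parental cells without passing the threshold, and −0.91 and −0.83 in Holoclone and Paraclone cells.

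Over the 79 members, the log2 fold change of a gene and the median of up to 20 tested neighbours on its chromosome, other ribosomal protein genes left out, were correlated. Between the parental lines Pearson's r was 0.83 and Spearman's rho 0.77, and without *RPS16* 0.74 and 0.76. In Holoclone cells r was 0.79 and in Paraclone cells 0.86, or 0.66 and 0.79 without *RPS16*. Over all 15875 tested genes with a single position, with ribosomal protein genes kept among the neighbours, r was 0.35, 0.34 and 0.31. Those genes include many of low TPM and were not matched to the members in level. These are correlations across genes, which share libraries and in part windows, and they carry no p. Examples, chosen after their values were seen, are *RPS6* with 2.04 beside a neighbour median of 0.84, *RPL34* with 1.58 beside 0.84, and *RPLP2* with −0.81 beside −1.23. *RPL27A*, with −0.14 beside a neighbour median of −1.32, and *RPL10*, with −0.41 beside −1.61, had values nearer to 0 than those of their surroundings. Between Holoclone and Paraclone cells, r was 0.53 in Panc1 and 0.55 in Panc89, against 0.23 and 0.24 over all genes.

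**Figure D5:**
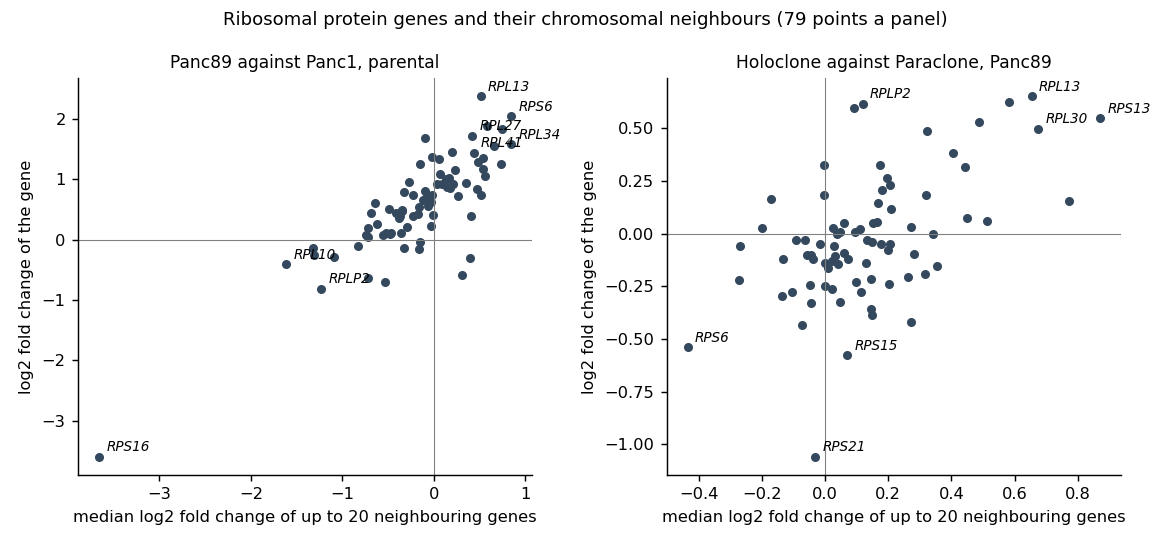
Log2 fold change of each tested ribosomal protein gene (vertical axis) against the median log2 fold change of up to 20 neighbouring tested genes (horizontal axis), between the parental lines (left) and between Panc89 Holoclone and Paraclone cells (right). Pearson's r over the 79 points is 0.83 on the left and 0.55 on the right; *RPS16* lies at the lower left of the left panel, and *RPS21* is low on the right although its neighbours are near 0.

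Holoclone and Paraclone cells, which were compared to see how stem and non-stem clones of a line differ, gave few calls among these genes. In Panc1, 4 members were higher and 10 lower in Holoclone cells, against 27.4% higher and 9.97% lower of all tested genes, and the median log2 fold change was −0.04 against 0.19 for all genes. The higher members were *RPL36AL*, *RPL35A*, *RPL7L1* and *RPS15*. *RPL36AL* was at 476, 403 and 509.6 TPM in Holoclone and 257, 249 and 243 TPM in Paraclone cells, with parental cells at 276 to 292 TPM. The 3 groups were apart, and the log2 fold change between the clones was 0.88 ± 0.09. *RPL35A*, another gene mutated in Diamond-Blackfan anaemia, was at 2258, 1851 and 2244 TPM in Holoclone and 1235, 1426 and 1517 TPM in Paraclone cells. The tested neighbours of *RPL35A*, 12 genes at the end of chromosome 3, had a median of 0.95, with 9 of 12 higher. Of the lower members, *RPL37* was at 1820.4, 1549.9 and 1722 TPM against 2092, 2505 and 2788 TPM and *RPS4X* at 829, 706 and 814 TPM against 1003, 1095 and 1171 TPM. The 20 neighbours of *RPL37* on chromosome 5 had a median of −0.81, with 11 lower and none higher. *RPL27* and *RPL5* were lower with −0.40 and −0.36.

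The count of members depended on single libraries and on scaling in this comparison. Without Panc1 Holoclone replicate 2, the library with the lowest share, 8 were higher and 5 lower, and without Paraclone replicate 2 or replicate 3 the number of lower members was 6 or 3. *RPL27* lost its call without Holoclone replicate 2, *RPL37* without Paraclone replicate 3, *RPL5* without Holoclone replicate 3 or Paraclone replicate 3, and *RPS15* without Holoclone replicate 1 or replicate 3. Median-of-ratios scaling, which moved the median of all genes from 0.19 to 0, gave 1 higher and 28 lower members with a median of −0.32. Upper quartile scaling gave 1 higher and 26 lower. *RPL36AL* was the higher member that kept its call in every alternative tried, and *RPL35A*, *RPL7L1* and *RPS15* did not pass under these scalings. Among all called genes, the share that was higher went from 73.3% to 47.7% with median-of-ratios scaling.

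In Panc89, 12 members were higher and 8 lower in Holoclone cells, against 22.4% and 13.3% of all tested genes, with a median of −0.05 against 0.09 for all genes. *RPS21*, a small subunit gene, had the largest difference. It was at 953, 1047 and 1116 TPM in Holoclone and 2150.4, 2072 and 2262 TPM in Paraclone cells, and parental cells, at 2079 to 2245 TPM, overlapped with Paraclone cells. The log2 fold change was −1.06 ± 0.10 (limma-trend adjusted p = 1.03e-06), while its 20 neighbours on chromosome 20 had a median of −0.03. In the 9 Panc1 libraries *RPS21* was at 1859 to 2292 TPM. *RPS15*, needed for export of the small subunit from the nucleus, was at 1612, 1351 and 1209.7 TPM in Holoclone and 2101, 1898 and 2199 TPM in Paraclone cells, and *RPS6* at 1546, 2042 and 2122 TPM and 2811, 2455 and 2983 TPM. *RPL39* and *RPL38* were lower with −0.43 and −0.42. The higher members included *RPLP2*, at 4659, 5389 and 5063 TPM in Holoclone and 3254, 3169 and 3428 TPM in Paraclone cells, and *RPL27A*, at 2860.0, 3401 and 3387 TPM and 2093, 1983 and 2303 TPM. Together with *RPS13* (0.55) and *RPS3* (0.32) these are 4 of the 5 members on chromosome 11, where the members had a median of 0.55 and all 895 tested genes one of 0.42. Neighbour medians were 0.12 for *RPLP2*, 0.09 for *RPL27A*, 0.87 for *RPS13* and 0.17 for *RPS3*. *RPL13* and *RPS15A* on chromosome 16 rose by 0.65 and 0.62, beside neighbour medians of 0.65 and 0.58.

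Here too the number of lower members turned on 2 libraries. It was 15 without Panc89 Paraclone replicate 2 and 4 without Paraclone replicate 3. *RPL13* lost its call without Holoclone replicate 2 or replicate 3 or Paraclone replicate 2, *RPL39* without Holoclone replicate 3 or Paraclone replicate 1 or replicate 3, and *RPL38* without Paraclone replicate 3. In a fit of these libraries alone, 2 members were higher and 1, *RPS21*, lower. *RPL13* and *RPS3* lost their calls under both other scalings. Under median-of-ratios scaling 4 were higher and 15 lower with a median of −0.19, and under upper quartile scaling 5 were higher and 12 lower. The share that was higher among all called genes went from 62.8% to 49.3% and 52.5%.

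The calls of the 2 lines were then set side by side. No member was higher in Holoclone cells of both lines, against 7.54% of all tested genes. *RPL14* was the 1 member that was lower in both, against 2.09% of all genes, with −0.33 in Panc1 and −0.39 in Panc89. Of the 79, 50 were called in neither line, against 41.5% of all genes. When the log2 fold change of Holoclone over Paraclone cells in Panc1 was subtracted from that in Panc89, 12 members passed the threshold with a positive and 7 with a negative difference, against 14.8% and 20.4% of all genes. Without Panc1 Paraclone replicate 2, Panc89 Holoclone replicate 2 or Panc89 Holoclone replicate 3, the 12 became 7. *RPL36AL*, *RPL37*, *RPS15* and *RPS3* were called in both lines in opposite directions, and these 4 of 79 were near the 4.92% of all genes for which this held. *RPL36AL* was higher in Holoclone cells of Panc1 and lower in those of Panc89, at 182 to 207 TPM against 234 to 236 TPM, with a difference of −1.16 ± 0.13. Its call in Panc89 was lost without Holoclone replicate 2 or Paraclone replicate 3. *RPL37* did the reverse, with 1914, 2496 and 2605 TPM in Panc89 Holoclone against 1760.2, 1369.8 and 1882 TPM in Paraclone cells, and a difference of 1.01 ± 0.21. Its 20 neighbours had a median difference of 0.86. *RPS15* had a difference of −0.96 ± 0.16, *RPLP2* of 0.82 ± 0.17, *RPS3* of 0.68 ± 0.13 and *RPS21* of −1.10 ± 0.14.

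The 5 paralogs were expressed far below their parents. *RPL3L*, known from heart and skeletal muscle, stayed at or under 0.188 TPM in every library and was not tested. *RPL39L*, *RPS27L*, *RPL22L1* and *RPL26L1* reached 18.1 to 139 TPM, against at least 432 TPM for *RPL22* and more for *RPL39*, *RPS27* and *RPL26*. *RPL39L*, known to be abundant in testis, was at 73.0, 74.5 and 64.6 TPM in parental Panc1 and 27.2, 28.7 and 28.7 TPM in parental Panc89 cells, with a log2 fold change of −1.29 ± 0.29. In Holoclone cells it was at 94.8 to 115 TPM and 33.97 to 55.8 TPM, also apart. Its ranges in Paraclone cells overlapped, although the log2 fold change of −1.20 between the lines passed the threshold there too. *RPS27L*, a relative of *RPS27*, was at 65.3, 57.0 and 56.6 TPM in parental Panc1 and 25.3, 26.1 and 25.8 TPM in parental Panc89 cells. Within Panc89 it was at 23.3, 18.7 and 18.1 TPM in Holoclone and 55.6, 34.02 and 48.5 TPM in Paraclone cells, a log2 fold change of −1.14 ± 0.16 (limma-trend adjusted p = 4.00e-05), while its parent *RPS27* had −0.05. In Panc1 the same comparison of *RPS27L* gave −0.26 without passing the threshold, and the difference between the lines was −0.87 ± 0.22.

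*RPL22L1*, which can replace *RPL22* in the ribosome, was at 57.9, 43.7 and 54.9 TPM in Panc1 Paraclone and 139, 112 and 134 TPM in Panc89 Paraclone cells, a log2 fold change of 1.28 ± 0.24. In parental cells the ranges overlapped, with 45.4 to 87.7 TPM and 75.0 to 119 TPM. Its higher level in Panc1 Holoclone than Paraclone cells, 75.8 to 90.7 TPM against 43.7 to 57.9 TPM, was just past the threshold with an adjusted p of 0.0492 in limma-trend and was lost when any 1 of the 6 libraries was left out. *RPL22* itself stayed within 432 to 648 TPM over all libraries. Between Panc1 Holoclone and Paraclone cells it was 1 of the lower members, with a log2 fold change of −0.25 and an adjusted p of 0.0468 in limma-trend. This call of *RPL22* was lost in 11 of 18 alternatives. In the start sites shown above, *RPL22* and *RPL22L1* both start with a pyrimidine run, and *RPS27* does while *RPS27L* does not. *RPL26L1* was within 44.4 to 62.8 TPM and passed in no comparison. Of the relatives counted among the 80, *RPL7L1* was at 98.2 to 160.5 TPM and *RPL36AL* at 182 to 510 TPM, also far below *RPL7* and *RPL36A*.

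Levels of most other members were high. Over all libraries 69 of the 80 had a mean over 1000.0 TPM, and *RPS16*, *RPL41* and *RPS18* were the 3 highest. The lowest were *RPL10L*, *RPL9* with 71.4 and *RPL7L1* with 128 TPM. *RPL9*, a core protein of the large subunit, was at 52.3 to 107 TPM, and its pseudogene rows held 1.88% of the combined TPM. Whether other rows took reads of *RPL9* was not worked out, so its value is uncertain, and it is 1 of the 38 members counted as higher in Panc89 in all 3 variants. After removing group means, the 3081 pairs of members had a median Pearson's r of 0.55 over the 18 libraries, with 86.1% above 0. *RPSA*, *RPS2* and *RPS26* ran against the rest, with median r of −0.54, −0.39 and −0.34 to the other members, and *RPL18* ran most with them, with 0.79. These correlations are a description over libraries that were normalised to the same total.

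Some members have close copies in the annotation between which reads could be divided. Rows of processed pseudogenes or read-through transcripts held over 10% of the combined TPM for *RPL23A* (60.4%), *RPS28* (48.8%), *RPL36A* (43.6%), *RPL22* (21.0%) and *RPL21* (11.4%), and under 1% for 74 of the 85 genes. The largest of these rows was *RPL23AP42* with a mean of 1739 TPM. Values of these 5 genes are uncertain. When each member was pooled with its own copies, *RPL23A* had a log2 fold change of 1.43 between the parental lines against 1.45 alone, *RPS28* 0.88 against 0.96 and *RPL36A* −0.19 against −0.29.

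Lists of other genes of the translation machinery were counted in the same way, beside 27.5% higher and 38.5% lower of all genes between the parental lines. Of 15 genes of translation factors and related proteins with a known TOP start, 10 were higher and 2 lower in parental Panc89 cells (66.7% and 13.3%), with a median of 0.76. *TPT1* was at 1067 to 1448 TPM in parental Panc1 and 4308 to 5905 TPM in parental Panc89 cells and *EIF3E* at 248 to 327 TPM and 891 to 937 TPM, while *EEF1A1*, the elongation factor, was at 8618 to 11320.1 TPM and 8194 to 8815 TPM. *FAU* and *RACK1*, which encode ribosomal proteins under other names, had log2 fold changes of −0.27 and −0.09 between the parental lines, and neither passed the threshold. Of 78 genes of mitochondrial ribosomal proteins, 20 were higher and 26 lower (25.6% and 33.3%), near the shares of all genes, with a median of −0.02. Of 45 genes of RNA polymerase I and rRNA processing, 8 were higher and 22 lower (17.8% and 48.9%), with a median of −0.38. Of 13 snoRNA host genes 6 were higher and 1 lower (46.2% and 7.69%), with a median of 0.56. Of 14 genes that regulate ribosome production 4 were higher and 8 lower (28.6% and 57.1%), among the latter *LARP1*, with 140.5 to 146 TPM and 88.4 to 114 TPM.

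The same lists were counted between Holoclone and Paraclone cells, where 27.4% of all genes were higher and 9.97% lower in Panc1 and 22.4% and 13.3% in Panc89. Of the 45 genes of RNA polymerase I and rRNA processing, 21 were higher and none lower in Panc1 Holoclone cells (46.7% and 0%), with a median of 0.41, and 17 were higher and 1 lower in Panc89 Holoclone cells (37.8% and 2.22%), with 0.35. Medians of all genes were 0.19 and 0.09. *RRN3*, which brings RNA polymerase I to its promoter, was at 92.5, 99.0 and 105 TPM in Panc1 Holoclone and 48.6, 46.7 and 49.2 TPM in Panc1 Paraclone cells. In Panc89 it was at 39.2, 52.0 and 56.7 TPM and 23.4, 26.9 and 24.8 TPM. Of the 78 mitochondrial ribosomal protein genes, 29 were higher and 7 lower in Panc1 (37.2% and 8.97%) and 21 higher and 2 lower in Panc89 (26.9% and 2.56%). *LARP1* was higher in Holoclone cells of both lines, with 0.47 and 0.38. The TOP translation factors gave 1 higher and 2 lower in Panc1 and 5 higher and none lower in Panc89, among them *PABPC1* with 0.81. The level of the cell cycle list, given above by library, was lower in 2 of the 3 libraries of both Paraclone groups than in any Holoclone library of the same line. Its part in these counts was not tested. Counts of these lists, here and between the parental lines, were made with the values as deposited and were not repeated under the other scalings. Those scalings lowered the share that was higher among all called genes in both comparisons of the clones.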

How the data were processed

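RNA of 18 cultures was measured, 3 passages in each of 6 groups. Per the labels and methods, the authors quantified stranded mRNA libraries with kallisto 0.46.1 against Ensembl transcripts of GRCh38, summarised them to genes as scaled TPM and deposited them as log2(TPM + 1). TPM are per length. No counts were used here, so depth is unknown. The log2 values were fitted with limma 3.58.1 in R 4.3.3 (limma-trend, 1 mean per group, all libraries sharing the spread) over the 16093 genes that reached 1 TPM in 3 or more of the libraries, and p-values were adjusted by Benjamini-Hochberg with a threshold of 0.05. The script was tested on simulated data with 200 changed genes. Named were, per comparison, the members with the largest fold changes in each direction that passed without overlap between replicates and had at least 10 TPM, together with paralogs, extreme levels and lists of translation genes. Members and lists were chosen with earlier results of these data known. The cell cycle list came from Seurat 5.3.0. Positions were from GENCODE 44 and start sites from RefSeq. Alternatives covered pseudocount, filter, scaling, block, threshold, trend and left-out libraries. Some genes that the naming rule selects are not reported here, and protein sequences were not used here.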

Additional observations from a re-analysis of the deposited data

Results flagged for a closer look

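By the limma test over all genes, the contrast of Holoclone and Paraclone cells differed between Panc1 and Panc89 for 12 members with a positive and 7 with a negative difference, against 14.8% and 20.4% of all genes, and for 1 paralog. Given here are the 3 members with the largest differences in each direction and the paralog. *RPL37* had log2 fold changes of −0.53 in Panc1 and 0.48 in Panc89, a difference of 1.01 with an adjusted p of 0.00165. *RPLP2* had −0.21 and 0.62, a difference of 0.82 (adjusted p = 0.00129). *RPS3* had −0.35 and 0.32, a difference of 0.68 (adjusted p = 0.000817). *RPL36AL* had 0.88 and −0.28, a difference of −1.16 (adjusted p = 4.07e-06). *RPS21* had 0.04 and −1.06, a difference of −1.10 (adjusted p = 2.72e-05). *RPS15* had 0.38 and −0.58, a difference of −0.96 (adjusted p = 0.000222). The paralog *RPS27L* had −0.26 and −1.14, a difference of −0.87 (adjusted p = 0.00603). Each Holoclone or Paraclone group is 1 clone, so that clone and cell type cannot be told apart in any of these differences.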

How the results depend on the processing

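No called value changed direction under the alternatives run. The median over the members, which has no test, changed sign with 1 library left out, from −0.13 to 0.01 in Panc1, from −0.13 to 0.04 in Panc89 and from −0.06 to 0.12 in the difference. Of the values of single genes, 1803 kept direction and call and 135 lost the call. The cause was not tested for any of the values that follow. Without a filter, Panc1 Holoclone cells had 6 lower members and the difference between the lines 7 positive ones. With the compared groups fitted alone, 3 were lower in Panc1, 2 higher and 1 lower in Panc89, and 7 positive in the difference. Upper quartile scaling gave a median of 0.79 between the parental lines, 1 higher and 26 lower (median −0.29) in Panc1, 5 higher in Panc89, and 3 negative (median 0.19) in the difference. Median-of-ratios scaling gave medians of 0.87 in parental and 0.65 in Holoclone cells between the lines, 1 higher and 28 lower (−0.32) in Panc1, 4 higher and 15 lower (−0.19) in Panc89, and 3 negative (0.19) in the difference. With a log2 fold change over 0.5 required, 2 were higher and 1 lower in Panc1, 6 and 3 in Panc89, and 7 were lower in Panc89 among Holoclone cells. Chosen after seeing the data, leaving out *RPL36AL* and *RPL7L1* gave 2 higher in Panc1, and pooling members with their copies moved no count by over 1.5 times. With mitochondrially encoded genes out of the total, the shares were 16.8% in parental and 18.2% in Paraclone Panc1 cells and 23.0% in parental Panc89 cells. With 1 library left out, the range was 3 to 8 higher and 3 to 11 lower in Panc1, 8 to 13 higher and 4 to 15 lower in Panc89, and 7 to 14 positive and 6 to 10 negative in the difference, while 50 to 55, 39 to 50 and 39 to 45 were higher between the lines in parental, Holoclone and Paraclone cells. Samples with the same number did not deviate together (18 pairs, r −0.32 to 0.19, 3 over 0.1), so numbers were not taken as pairs. With the replicate block, 47 members were higher and 5 lower between the parental lines, 4 and 7 in Panc1, 12 and 7 in Panc89. Depth is unknown, so what it limits cannot be given.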
